A study of Drosophila melanogaster with 2 samples.

Results

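The small-subunit ribosomal protein genes of Drosophila melanogaster encode the protein part of the cytosolic 40S ribosomal subunit. They were taken as the protein-coding genes whose symbol begins with RpS and a digit, plus sta, without symbols ending in -like. This rule gave 38 genes of 13986 protein-coding genes in the annotation. The assay was chromatin immunoprecipitation followed by sequencing (ChIP-seq) of ssp, the symbol of sunspot, a nuclear protein known from work on Wingless signalling and endoreplication. Whole embryos of a transgenic fly strain that makes ssp fused to enhanced GFP (eGFP) were collected at 0 to 24 h of development, and chromatin was pulled down with an antibody against GFP. There was 1 group with 2 biological replicates and no second genotype, age or treatment. The embryos held all tissues and stages of that window, so a peak does not say in which cells it arose, and it reports the fusion protein rather than untagged ssp.

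In a eukaryotic cell the 40S subunit holds the 18S rRNA and carries the mRNA channel and the decoding centre, while the 60S subunit joins the amino acids. Each subunit protein is needed in equal amount with the others, and in flies the loss of 1 copy of many of these genes gives the Minute phenotype of slow growth and thin bristles. In flies these genes are highly transcribed, and many start at a polypyrimidine initiator in place of the usual initiator.

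Of the 38 genes, 20 had a combined peak, which was 52.6%, while 21.3% of all protein-coding genes had one. A combined peak is an entry of the authors' list over both replicates that passed an irreproducible discovery rate (IDR) of 0.01 and has its summit within 500 bp of an annotated transcription start site (TSS) of the gene. The IDR estimates, for each entry, the chance that its rank does not repeat between the rankings compared. The lists of a single replicate derive from that replicate's alignments alone, so their IDR does not compare the biological replicates, and the deposited notes do not say which rankings were compared for each list. Signal is the peak caller's own value for each entry and has no physical unit. Positions are given from the TSS and are negative upstream of it.

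The promoters of the 3 genes with the highest signal and of 3 pairs of duplicated genes are shown. Those 3 genes stand out by their signal, and the pairs are 3 of the 5 that had a peak at 1 copy only. The sequences are from the dm6 assembly and run 5′ to 3′ on the strand of the gene, ending with the first 10 bases from the TSS. RpS3A lies at chr4:67198-67351 on the minus strand, RpS12 at chr3L:13023232-13023361 on the plus strand and RpS27A at chr2L:10408211-10408361 on the plus strand. Capitals mark the word CGATA on either strand, the longer palindrome TATCGATA that holds it, and, in RpS27A, the letters of a polypyrimidine initiator.
RpS3A: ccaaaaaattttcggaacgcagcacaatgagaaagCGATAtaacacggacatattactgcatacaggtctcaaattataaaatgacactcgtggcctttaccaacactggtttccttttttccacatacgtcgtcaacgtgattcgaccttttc
RpS12: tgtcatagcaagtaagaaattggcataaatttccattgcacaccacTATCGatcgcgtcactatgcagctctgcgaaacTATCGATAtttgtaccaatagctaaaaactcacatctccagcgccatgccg
RpS27A: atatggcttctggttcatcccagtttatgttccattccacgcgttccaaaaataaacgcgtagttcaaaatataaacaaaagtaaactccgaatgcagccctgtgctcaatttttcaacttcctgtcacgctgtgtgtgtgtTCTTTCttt

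TATCGATA is the DNA replication-related element (DRE), the site of the factor DREF and, by its CGATA part, of the insulator protein BEAF-32. RpS12 held 1 DRE and a further CGATA word, RpS3A held 1 CGATA word next to the summit at -104, and RpS27A held neither in the stretch shown. The pair RpS10a and RpS10b lies at chr3R:27652640-27652769 and chrX:19597911-19598040, the pair RpS14a and RpS14b at chrX:7933619-7933751 and chrX:7934778-7934907, all on the plus strand. RpS28a lies at chr3R:30022639-30022815 on the minus strand and RpS28b at chrX:9554503-9554632 on the plus strand.
RpS10a: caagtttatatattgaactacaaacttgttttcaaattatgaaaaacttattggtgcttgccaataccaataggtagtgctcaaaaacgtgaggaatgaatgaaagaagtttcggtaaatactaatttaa
RpS10b: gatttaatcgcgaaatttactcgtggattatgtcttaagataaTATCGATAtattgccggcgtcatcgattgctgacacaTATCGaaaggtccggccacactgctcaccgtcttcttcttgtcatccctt
RpS14a: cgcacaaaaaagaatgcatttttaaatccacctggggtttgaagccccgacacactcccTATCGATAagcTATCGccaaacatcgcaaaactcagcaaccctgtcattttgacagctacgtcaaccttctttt
RpS14b: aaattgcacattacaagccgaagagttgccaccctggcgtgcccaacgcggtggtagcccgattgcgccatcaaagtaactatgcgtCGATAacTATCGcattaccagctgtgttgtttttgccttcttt
RpS28a: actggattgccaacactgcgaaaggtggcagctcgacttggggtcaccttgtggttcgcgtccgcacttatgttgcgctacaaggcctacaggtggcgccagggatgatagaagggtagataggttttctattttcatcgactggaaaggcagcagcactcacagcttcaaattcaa
RpS28b: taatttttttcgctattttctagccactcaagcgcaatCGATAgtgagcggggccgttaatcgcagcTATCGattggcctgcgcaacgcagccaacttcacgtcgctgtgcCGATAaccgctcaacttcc

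The 3 copies with a peak, RpS10b, RpS14b and RpS28b, each held a marked word in these stretches. So did RpS14a, which had no combined peak and held 1 DRE and a further CGATA word, while RpS10a and RpS28a held none. The RpS28a candidate lay at -127, within its stretch, and that of RpS10a at 418, outside it. RpS28a also held a CGATA word at -189, upstream of its stretch. In the pairs with a peak at 1 copy that are not shown, both copies held a word. Without a peak, RpS15Ab held a DRE at -59 and RpS5b a CGATA word at -237. With a peak, RpS15Aa held a DRE at -4, and RpS5a a CGATA word at -96 and a DRE at -270.

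The combined list held 4948 peaks, with a median signal of 133, and the authors' lists of single replicates held 3606 peaks in replicate 1 and 3437 in replicate 2. All values come from lists of peaks without read counts, so the depth behind a signal is unknown. The immunoprecipitation had no untagged strain among the samples analysed here. Over the 16 genes whose combined peak overlapped a peak in both replicate lists, the combined signal was 0.995 times the sum of the replicate signals at the median (0.951 to 1.03), against 0.999 over 1446 other such peaks at a protein-coding TSS. Over these other peaks the ratio ran between 0.205 and 1.14, so at single peaks it could lie far from a sum. At the 16 genes a combined signal was close to a sum. Combined signals were therefore not compared in size with replicate signals.

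The signals spread over a wide range. The median over the 20 genes was 192, against 189 over all 2984 protein-coding genes with a combined peak, and their order changed with the setting: with a window of 200 bp it was 177 against 190.4. There were 3 genes above 1000, 3 between 523 and 602, 12 between 104 and 299 and 2 under 100. RpS3A, a protein of the platform near the mRNA exit, had the highest combined signal at 3113, with 1669 in replicate 1 and 1457 in replicate 2. It ranked 33rd in the combined list and was the only one of the 20 among the 100 strongest peaks. Its summit lay at -104. RpS3A was the only one of the 38 genes on chromosome 4, where 53.8% of all protein-coding genes had a combined peak, with a median signal of 1873 over 43 genes, 9 of them above RpS3A. Without RpS3A the median of the remaining genes was 178.

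RpS12, a protein of the beak of the 40S head that flies need for the competition between normal and Minute cells, had a combined signal of 1484. Its replicate signals were 742 and 739.8, and its summit lay at -73. RpS27A, made as a fusion of ubiquitin and a ribosomal protein, had a combined signal of 1175.5, with 580.0 in replicate 1 and 605 in replicate 2 and a summit at -101. Both genes thus gave nearly the same value in each replicate. The gene Ip259 starts at the same annotated TSS as RpS27A, on the same strand, so the peak cannot be given to 1 of these genes.

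The next 3 genes lay close together. RpS20, a protein of the head, had a combined signal of 602 and replicate signals of 257 and 345. RpS4, a protein of the body, had 532, with 288 and 239. RpS27, a zinc-binding protein, had 523, with 316 and 199. The order of RpS20, RpS4 and RpS27 was not the same in the replicates: RpS27 was the highest of the 3 in replicate 1 and the lowest in replicate 2. The RpS20 summit at -211 was the farthest of the 20 and lay nearer, at 122 bp, to the TSS of its head-to-head neighbour CG17271. RpS20 had a further combined peak with a signal of 71.6 and a summit at -9. The summits of RpS4 at -72 and RpS27 at -35 were nearer to their own TSS.

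The genes from rank 7 to rank 10 had signals between 206 and 299. RpS21, whose loss in flies gives overgrowth of blood-forming tissue, had a combined signal of 299, with 163 and 127 in the replicates and a summit at -10. RpS28b, a protein at the mRNA exit channel, had 264, with 146 and 132, and a summit at -31. RpS25, a head protein used by viral internal ribosome entry sites, had 221, with 95.4 and 136, and a summit at -121. RpS15Aa, a protein of the body, had 206, with 85.5 and 129.6, and a summit at 3. Replicate 1 was higher at RpS21 and RpS28b and replicate 2 at RpS25 and RpS15Aa.

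**Figure D1:**
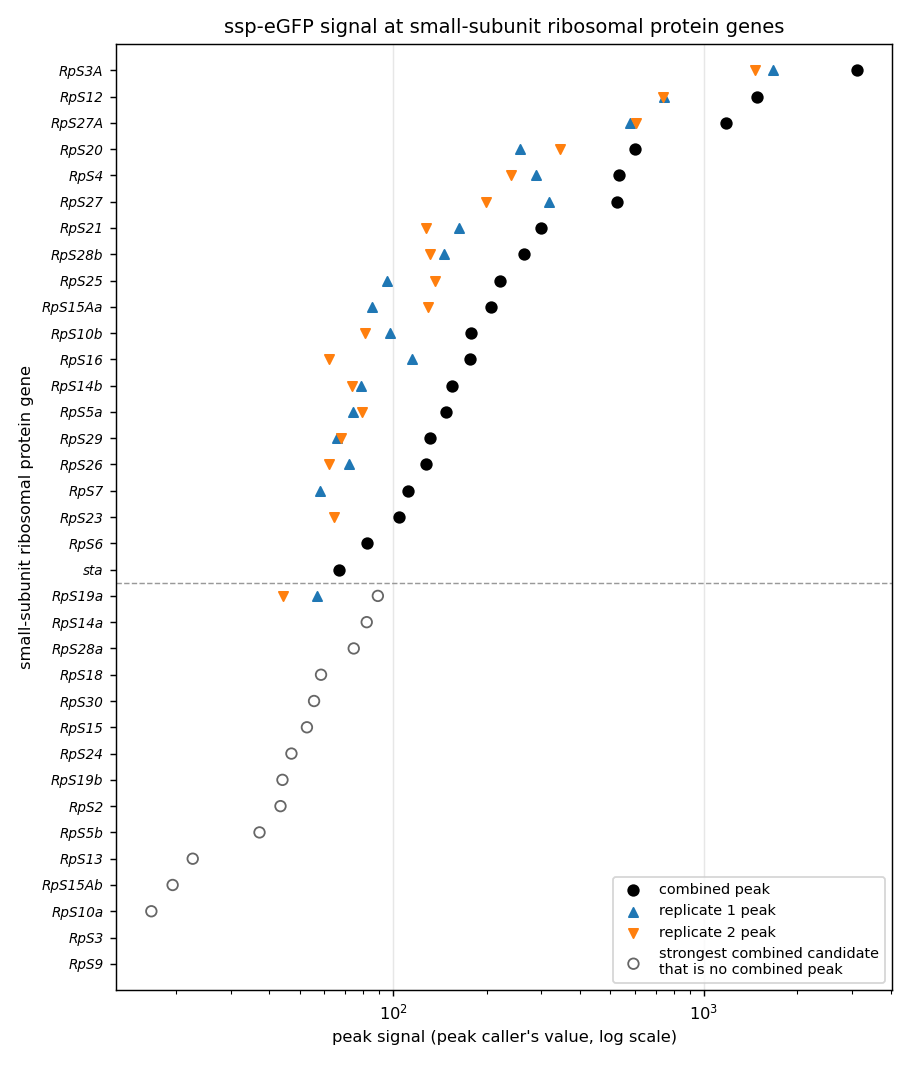
Peak signal on a log axis for the small-subunit ribosomal protein genes reported by name, in order of combined signal. Filled circles are combined peaks, triangles are peaks of each replicate, and open circles below the dashed line are the strongest combined candidates of genes without a combined peak. RpS3A at 3113 stands highest, RpS3 and RpS9 have no combined candidate, and RpS19a has replicate peaks without a combined peak.

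Of the remaining genes with a combined peak, 6 had a peak in both replicate lists. RpS10b of the beak had a combined signal of 178 at -66, with 97.4 and 81.2 in the replicates. RpS16, a head protein whose tail reaches the peptidyl site, had 177, with 115 and 62.4. Its summit lay at -43 from a downstream TSS but at 339 from the first TSS of the gene. RpS14b of the platform had 155 at -10, with 79.0 and 73.8, and RpS5a of the head had 148 at -60, with 74.0 and 79.2. RpS29, a zinc-binding head protein, had 131 at -36, with 66.2 and 67.7. RpS26, a protein at the mRNA exit, had 128 at -29, with 72.0 and 62.1, and a further combined peak with a signal of 11.9 at -232. Of these 6 genes RpS16 had replicates that differed most.

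The combined peaks of 4 genes lacked an overlapping peak in a replicate list. RpS7, a protein of the body, had a combined signal of 111 at -45 and a replicate 1 peak of 58.1, and its strongest replicate 2 candidate of 61.0 had an IDR of 0.0195. RpS23, a protein of the decoding centre, had a combined signal of 104 at 23 and a replicate 2 peak of 64.7, and its replicate 1 candidate of 61.1 had an IDR of 0.0126. These genes missed a replicate list by a small margin in IDR. RpS6, the substrate of S6 kinase, had a combined signal of 82.4 at -38 and no peak in either replicate list, with candidates of 41.2 and 47.3 at an IDR of 0.0188 and 0.0203. sta, the fly gene for the laminin-receptor-like protein of the subunit, had 67.1 at 44 with a combined IDR of 0.00796, close to the threshold. Its candidates were 48.9 in replicate 1 and 24.2 in replicate 2, at an IDR of 0.0417 and 0.401. sta was also not in the authors' conservative list of 4719 peaks.

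In the replicate lists 18 of the 38 genes had a peak in replicate 1, against 18.0% of all protein-coding genes, and 18 had one in replicate 2, against 17.3%. The combined peak overlapped a peak in both replicate lists at 16 of the 20 genes, while 70.5% of all genes with a combined peak did so. The log2 ratio of replicate 2 to replicate 1 had a median of -0.12 over the 16 genes (SD 0.39), against -0.19 over 1446 other such peaks at a protein-coding TSS, each counted once (SD 0.30). It ran between -0.88 at RpS16 and 0.60 at RpS15Aa and was above 0 at 6 of the 16 genes. Above 0 it was at 342 of the 1446 other peaks. No test was made between them.

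**Figure D2:**
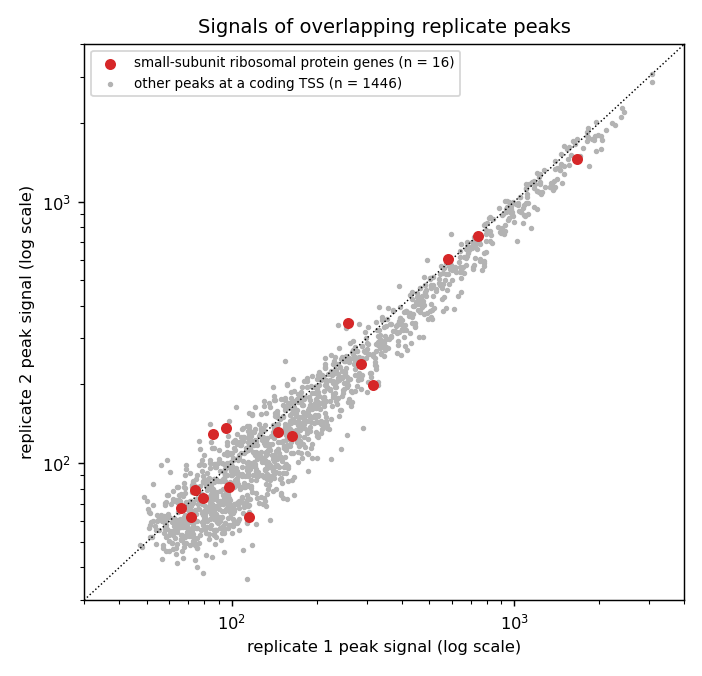
Replicate 2 against replicate 1 peak signal, both on log axes, for 16 small-subunit ribosomal protein genes (red) and 1446 other peaks at a protein-coding TSS (grey); the dotted line marks equal signals. The 3 genes above 500 in both replicates lie near the line, and RpS16, at 115 and 62.4, lies farthest below it among the 16.

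No combined peak was found at 18 genes, 16 of which had at least 1 ranked candidate in the combined ranking within 500 bp of a TSS. Of the 36 genes with such a candidate 55.6% had a combined peak, while 28.8% of all protein-coding genes with a candidate did. Over the 16 genes the signal of the strongest candidate had a lowest value of 16.7, a median of 49.6 and a highest value of 89.3. The combined list held 1240 peaks with a signal under 89.3, so the IDR and not the signal alone separated these candidates from peaks. The IDR was above 0.1 at 13 of the 16 genes.

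Among the genes nearest to the threshold were RpS19a and RpS30. RpS19a, a head protein, had a combined candidate of 89.3 at -33 with an IDR of 0.0401. It was in both replicate lists, with a peak of 57.0 at 16 in replicate 1 and a peak of 44.4 at -390 in replicate 2, so the replicates did not place the peak at the same site. The head-to-head neighbour Rok starts 480 bp upstream of RpS19a, so the replicate 2 summit lay nearer to the TSS of Rok. RpS30, made as a fusion with a ubiquitin-like protein, had a candidate of 55.7 at 38 with an IDR of 0.0283.

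Of the genes farther from the threshold, RpS14a had a candidate of 82.2 at -83 and RpS28a one of 74.7 at -127. RpS18 and RpS15, head proteins that face the large subunit, had candidates of 58.6 and 52.8, at an IDR of 0.585 and 0.115. In replicate 2 alone the RpS18 candidate, at 40.3, had an IDR of 0.0142, against 0.920 in replicate 1. RpS24 and RpS2 of the body had candidates of 47.1 and 43.4. RpS19b had 44.0, RpS5b 37.2, RpS13 of the body 22.7, RpS15Ab 19.5 and RpS10a 16.7. RpS3, which lines the mRNA entry, had no candidate in the combined or replicate rankings. RpS9 of the body had only a replicate 1 candidate of 14.0 at an IDR of 0.920. For these genes no peak was detectable in the lists, which does not show that ssp was absent.

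The duplicated genes differed within pairs. There were 6 pairs with names that end in a and b, and in 5 of them 1 copy had a combined peak and the other had none. The copies with a peak were RpS5a (148), RpS10b (178), RpS14b (155), RpS15Aa (206) and RpS28b (264). Their partners had candidates of 37.2 at RpS5b, 16.7 at RpS10a, 82.2 at RpS14a, 19.5 at RpS15Ab and 74.7 at RpS28a, at an IDR between 0.196 and 0.885. All 5 copies with a peak lay on the X chromosome, and of their partners only RpS14a did. In the pair of RpS19a on the X chromosome and RpS19b on chromosome 3R neither copy had a combined peak. RpS5b and RpS19b are known as copies used mainly in the germ line. RpS14a and RpS14b are neighbours with 221 bp between them, and the RpS14a candidate lay 1229 bp from the RpS14b summit. Near-identical copies can share reads in their transcribed part, and the sources used here do not say whether reads were filtered for unique placement.

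Outside the pairs 15 of 26 genes had a combined peak. On the X chromosome 7 of 9 of the 38 genes had one, against 23.1% of all its protein-coding genes, and on 3R 5 of 12 had one, against 21.4%. On 2L it was 3 of 5 and on 3L 2 of 4, against 20.9% of all genes on each, and on 2R 2 of 7 against 20.1%. Grouped by place in the subunit, a grouping made after the data were seen, 9 of 18 head proteins and 11 of 20 proteins of the body, platform and back had a combined peak. The median signal was 221 over the head genes and 155 over the others, with ranges of 131 to 1484 and 67.1 to 3113 that overlapped.

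Summits lay close to the TSS. The median position over the 20 genes was -40.5, against -121 over all 2984 genes with a combined peak. With each peak counted only for the nearest TSS it was -37, against -92 over all genes. Within 50 bp of a TSS lay 12 of the 20 summits, against 14.6% over all genes, and within 150 bp 19 of the 20, against 57.9%. The summit was upstream at 17 of the 20 genes (85%), against 89.9% of all. The exceptions were RpS15Aa at 3, RpS23 at 23 and sta at 44. These positions are from the TSS nearest to the summit, which at these genes is also the first TSS. Each of them has another annotated TSS downstream of its summit, and from that TSS the summit lies upstream. No test of these differences was made.

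**Figure D3:**
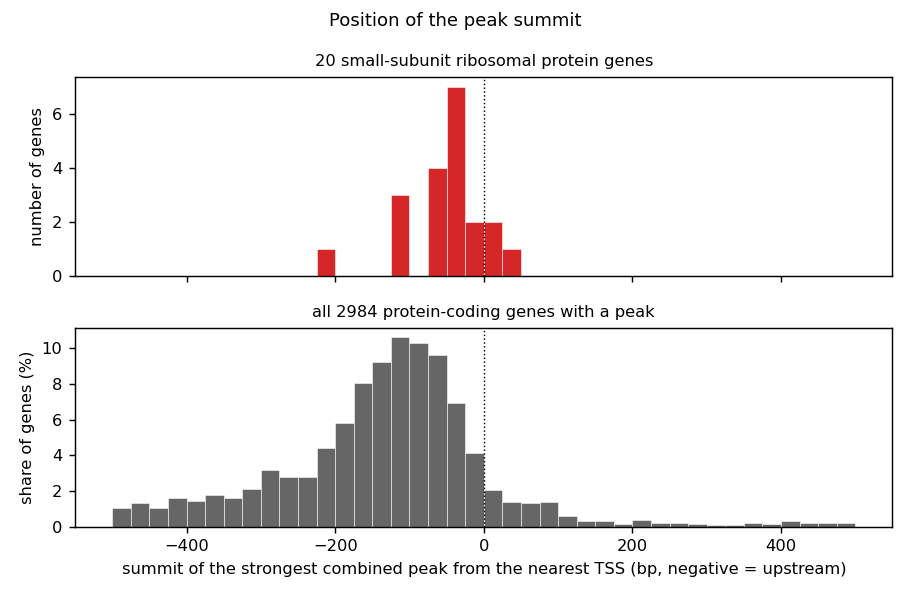
Number of small-subunit ribosomal protein genes (upper) and share of all 2984 protein-coding genes with a peak (lower) by position of the summit of the strongest combined peak from the nearest TSS, in bins of 25 bp. The 20 summits lie between -211 and 44 with a median of -40.5, and those of all genes have a median of -121.

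Another protein-coding TSS lay within 500 bp of the summit at 7 of the 20 genes. These were RpS27A with Ip259, RpS20 with CG17271, RpS27 with Nup37, RpS21 with CG3104, RpS25 with CG4820, RpS16 with CG4294 and sta with inc. At RpS20 the other TSS was the nearer one, and at RpS25 the summit lay at -121 from RpS25 and 127 bp from CG4820. A head-to-head neighbour within 1000 bp was present at 22 of the 38 genes, and 12 of these 22 had a combined peak (54.5%), against 38.1% of the 5056 protein-coding genes with such a neighbour. Without one it was 8 of 16 genes (50%), against 11.8% of 8930. Of the 13 genes that hold a snoRNA gene on the same strand 10 had a combined peak (76.9%), against 53.6% of all 84 protein-coding genes that hold one. Of the 25 genes without a snoRNA gene 10 had a peak (40%), against 21.1% of 13902. Among all protein-coding genes, as among the 38, the share was higher with a snoRNA gene than without one, and no test was made.

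The other parts of the translation machinery were counted in the same way. The large-subunit ribosomal protein genes had a combined peak at 39 of 50 genes (78%), a higher share than the 52.6% of the small-subunit genes, with a median signal of 250 against 192. Over peaks above the list's median signal the order of the medians was reversed, at 277 against 281. The highest signals of the large-subunit genes were 3116 at RpL5, 2849 at RpL15, 2469 at RpL38 and 2265 at RpL10. Of the mitochondrial small-subunit ribosomal protein genes 13 of 26 had a peak (50%), with mRpS10 at 1522 the highest, and their summits had a median position of -232. With each peak counted only for the nearest TSS the mitochondrial share was 15.4%, against 15.8% of all protein-coding genes, and the median position was -50. Of the factors that assemble the small subunit 12 of 29 had a peak (41.4%), with the kinase gene RIOK2 at 3607 the highest. The list of initiation factors that bind the 40S subunit also held Rack1, which is not an initiation factor. Of the 24 genes of this list, called initiation factors here, 9 had a peak (37.5%). The highest was eIF3c at 423, and Rack1 at 164 was among the 9. The median summit position was -76 for the large-subunit genes, -81.5 for the assembly factors and -93 for the initiation factors. Counted by the nearest TSS only, these were -60, -59 and -19, against -37 for the small-subunit genes. In the conservative list the initiation factors stood above the assembly factors, at 45.8% and 31.0%. The differences between these lists were not tested.

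**Figure D4:**
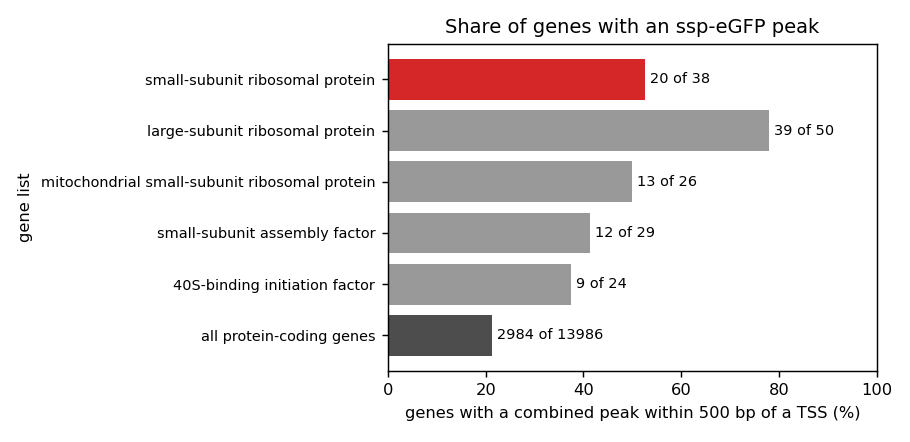
Share of genes with a combined peak within 500 bp of a TSS, in percent, for the small-subunit ribosomal protein genes (red), 4 other lists (grey) and all protein-coding genes (dark). The small-subunit genes stand at 52.6%, above all protein-coding genes at 21.3% and under the large-subunit genes at 78%.

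Exact words on both strands were counted within 50 bp of each summit, with 2316 other combined peaks at a protein-coding TSS for reference. The DRE, TATCGATA, was present at 5 of the 20 genes, RpS6, RpS7, RpS10b, RpS12 and RpS15Aa, against 4.84% of the other peaks. CGATA, which the DRE holds, was present at 11 of 20 genes, against 26.3%. TATAAA, the core of the TATA box, was present at 4 of 20, against 21.0%, and GAGAG at 1 of 20, RpS5a, against 7.38%. GGTCACAC, the core of Motif 1, was present at 1 of 20, RpS23, against 2.07%. CACGTG, the E-box, was found at 0 of 20 against 0.993%, CAGGTAG, the Zelda word, at 0 of 20 against 0.345%, and AAGGAAA at 0 of 20 against 2.25%. These matches describe letters in the windows and do not show that a factor was bound.

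In the promoter, taken from 250 bases before to 50 bases after the TSS, the DRE was present at 13 of the 38 genes, against 10.2% of 13968 protein-coding genes. It was found at 8 of the 20 genes with a combined peak and at 5 of the 18 without one. Those 5 were RpS13, RpS14a, RpS15Ab, RpS24 and RpS30. CGATA was present at 29 of the 38 genes, 17 with a peak and 12 without, against 53.1% of all genes. Both words were thus found at genes with and without a peak.

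The GC content within 50 bp of the summit had a median of 45.5% over the 20 genes (28.7% at RpS25 to 60.4% at RpS5a), against 33.7% over the other peaks (quartiles 27.7% and 41.6%). The median of the 20 genes thus lay above the upper quartile of the other peaks. The 5 words of 6 bases that most set the other peaks apart from candidates that failed the threshold hold A and T alone. Among them TATTAA was present at 1 of the 20 genes, against 21.8% of the other peaks, and TTTAAA at 0 of 20, against 20.2%. The words ATATTA and then ATAATA were each present at 3 of 20, against 20.5% and 20.7%, and ATTATA at 3 of 20, against 16.2%. At least 1 of the 5 was present at 7 of the 20 genes (35%), against 53.4% of the other peaks and 18.2% of 12601 failing candidates. Those 7 were RpS3A, RpS4, RpS6, RpS7, RpS10b, RpS20 and RpS29. The 5 words were chosen on these same other peaks and candidates, so the gap between their shares was built in. No test of these shares was made.

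The polypyrimidine initiator was searched on the strand of the gene, as CC or TC followed by TTTC or TTTT, with the second base, a C, within 3 bp of an annotated TSS. It was found at 12 of the 38 genes, against 1.20% of 13968 protein-coding genes, and at 14 of 50 large-subunit genes. The mitochondrial list had 0 of 26. No wider distance was tried, and in the stretches shown CCTTTT at RpS3A and TCTTTT at RpS14a lay beyond the limit of 3 bp. Of the 12 genes 7 had a combined peak, RpS4, RpS6, RpS7, RpS15Aa, RpS21, RpS27A and RpS29, and 5 had none, among them RpS3, RpS5b, RpS13 and RpS30. Among all protein-coding genes with the initiator, 54 of 168 had a combined peak, and among the large-subunit genes with it 13 of 14 did. The initiator thus marked genes with and without a peak, and no test of these shares was made. At RpS27A and RpS6 it lay at the TSS nearest to the summit, and at the other 5 genes with a peak at a TSS farther downstream.

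**Figure D5:**
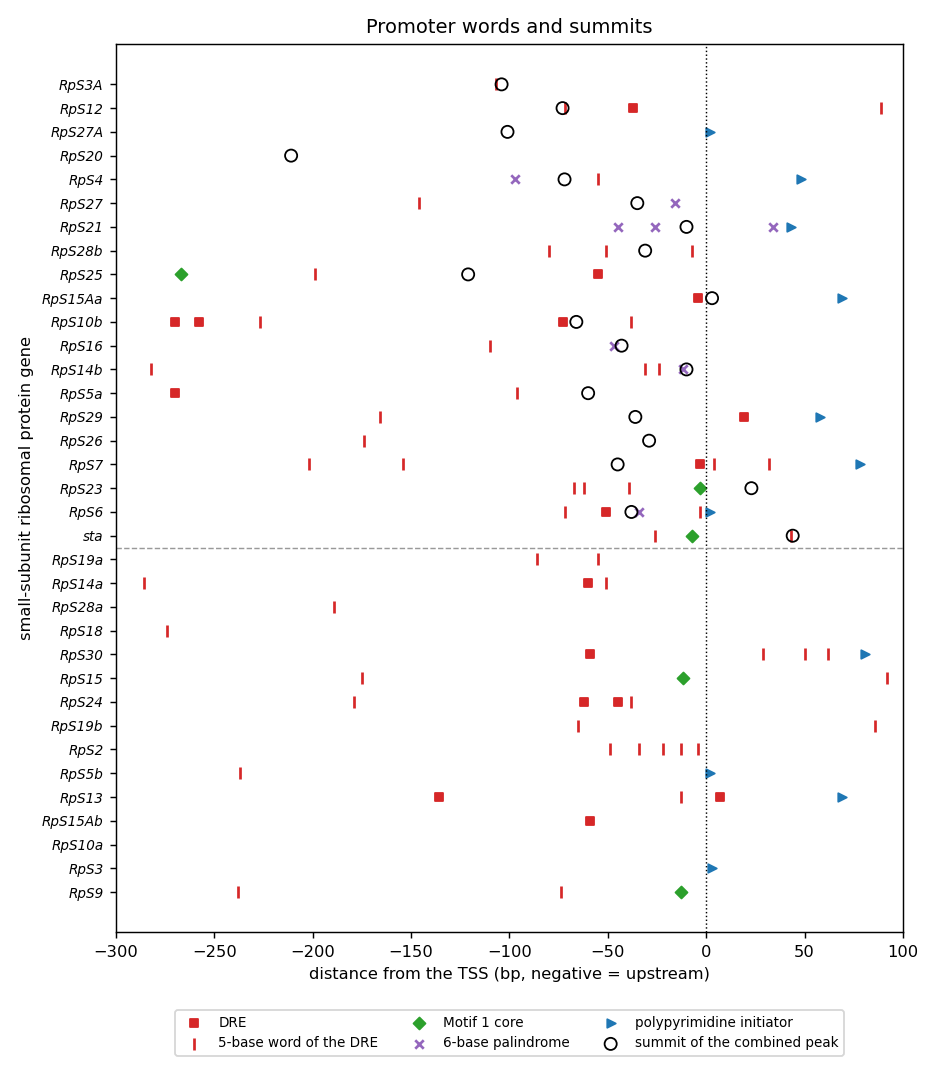
Promoter words and summits by distance from the TSS in bp for the small-subunit ribosomal protein genes reported by name, those with a combined peak above the dashed line. Filled squares mark the DRE, ticks the 5-base word outside a DRE, diamonds the Motif 1 core, crosses a 6-base palindrome, triangles the initiator and open circles the summit. Words of the DRE are found on both sides of the line.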

How the data were processed

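ChIP-seq for ssp-eGFP was done on 2 biological replicates of embryos, per the labels. The authors deposited peak lists on dm6, ranked and thresholded by IDR, for each replicate and over both. The sources used here do not give the peak caller, aligner or read filters. Column 7 of each deposited list holds a signal value per peak, and the deposited score in column 5 encodes the IDR. The IDR of the ranked lists was used to read the 0.01 threshold and to say how near a candidate came to it. There are 16 unnamed columns of per-replicate values that were not used.

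Genes and TSSs came from Ensembl release 115 on the same assembly, and sequences from the RefSeq copy of it. A gene had a peak if a summit lay within 500 bp of any of its TSSs, and the strongest such peak was kept. Words were matched exactly within 50 bp of summits. Of 33 listed assembly factors 4 had no match by symbol. The work used Python 3.11.15, numpy 2.4.6, pandas 2.3.3 and matplotlib 3.10.9, and was tested on simulated data. With 1 group no comparison between conditions was possible, and counts are given without a test. All 38 genes enter the counts, and 3 of them are not reported here by name. Full values are given for the 10 highest signals, duplicated pairs, genes without a combined peak and genes missing from a replicate list. The genes and lists were chosen with earlier results of these data known.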

Additional observations from a re-analysis of the deposited data

How the results depend on the processing

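The number of small-subunit ribosomal protein genes with a peak was 20 in the main count and between 14 and 21 over the conservative list, each replicate list, peaks above the list's median signal (stronger peaks), windows of 200 and 1000 bp, and counting each peak only for the nearest TSS. The stronger peaks gave 14 small-subunit genes, 6 assembly factors and 1980 protein-coding genes. The nearest-TSS count gave 4 mitochondrial genes, 7 assembly factors and 5 initiation factors, and the 200 bp window gave 6 mitochondrial genes. The median signal of the small-subunit peaks was 281 over stronger peaks and 106 to 128 in the lists of 1 replicate each, which are on another scale. The median position was -63 over stronger peaks, -37 with the 200 bp window and with nearest TSS only, and -54 to -49.5 in the replicate lists. For all protein-coding genes it was -124.5 over stronger peaks, -93 with the 200 bp window and -92 with nearest TSS only. In the promoter window 8 of the 20 genes held a DRE and 17 held CGATA. Leaving out RpS3A, an alternative chosen after seeing the data, gave a median signal of 178. With the 1000 bp window the strongest peak of RpS14b was one of 504 at 716, and RpS19b gained one of 130.1 at -939. With the 200 bp window or the nearest TSS only, RpS20 kept only its peak of 71.6. The order of the small-subunit median signal and that of all genes was not stable: it was 192 against 189 in the main count, 177 against 190.4 with the 200 bp window, 177 against 178 with nearest TSS only and 281 against 295 over stronger peaks. Assembly factors had a higher share than initiation factors in the main count (41.4% and 37.5%) and a lower one over stronger peaks (20.7% and 33.3%) and in the conservative list (31.0% and 45.8%). The share of small-subunit genes stayed above that of all genes in each of these lists. No paired analysis was possible because there was 1 group. The lists hold no read counts, so the error of a single signal is unknown, and with 2 replicates only their spread is seen.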

Other observations

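Some features of the summits were looked for after the data had been seen. The palindrome CAGCTG lay within 50 bp of the summit at 6 of the 20 small-subunit genes with a combined peak, RpS4, RpS6, RpS14b, RpS16, RpS21 and RpS27, against 3.71% of 2316 other peaks at a protein-coding TSS. In the promoter it was present at 7 of the 38 genes, a share under the 22.3% of 13968 protein-coding genes. These were 6 of the 20 genes with a peak and 1 of the 18 without, RpS30. No test was made.

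The windows around the summits of RpS21 and RpS28b, on different chromosomes, shared a run of 18 bases. Runs shared between pairs of other peaks were not counted, so there is no reference for this length. This run was the longest shared in 190 pairs of windows of the 20 genes, from which it was picked, and the next longest had 12 bases. It lies at chr2L:2856083-2856100 at RpS21 and at chrX:9554589-9554606 at RpS28b, on the plus strand of dm6 and of both genes. This is between 13 and 30 from the first TSS of RpS21 and between -34 and -17 from the TSS of RpS28b. Another annotated TSS of RpS21, at chr2L:2856111, lies downstream of the run, so from that TSS the run is upstream at both genes.
RpS21 and RpS28b: cgcagccaacttcacgtc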
